A study of Mus musculus with 2 samples.

Results

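The genes described here are 10 neighbours on mouse chromosome 12, from Rps29 to Nemf, taken by name from 23288 genes with 1 RefSeq transcript each. They were chosen by their log2 ratios of gene level between the 2 libraries of the study, so their levels below are a description and support nothing further. All 10 are listed on chromosome 12, and in the order of the GRCm38 RefSeq annotation no other listed gene lies between the first and the last of them. The order is Rps29, Lrr1, Rpl36al, Mgat2, Dnaaf2, 9330151L19Rik, Pole2, Klhdc1, Klhdc2 and Nemf. In the files Lrr1, Mgat2, 9330151L19Rik, Klhdc1 and Klhdc2 are on the plus strand and the rest on the minus strand.

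RNA came from cultured splenic B cells of fetal liver chimeric mice, whose blood cells descend from transplanted fetal liver while the host keeps its other tissues. The groups were Nedd4+/+ and Nedd4-/-, with 1 library each. Both had a mixed B6:129 background backcrossed to B6, and both had been cultured for 72 hours with lipopolysaccharide and IL-4, the stimuli of class switching to IgG1. RNA depleted of ribosomal RNA was sequenced. The deposited levels imply a depth of 8.40 gigabases in the Nedd4+/+ and 6.17 gigabases in the Nedd4-/- library, which may differ from all bases sequenced. The labels name no animal number, age or pooling. With 1 library a group no difference has a replicate check, no p-value is given, and all intervals are exact 95% intervals that cover counting error only.

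These genes serve several processes. Rpl36al and Rps29 encode proteins of the cytosolic ribosome, and Nemf encodes a factor of ribosome quality control, which finds stalled nascent chains on the large subunit and extends them for degradation. Klhdc2, Klhdc1 and Lrr1 encode substrate receptors of cullin-RING ubiquitin ligases: Klhdc2 and Klhdc1 read the C-terminal ends of proteins, and Lrr1 recognises the replicative helicase when replication ends. Pole2 encodes an accessory subunit of DNA polymerase epsilon, which copies the leading strand. Mgat2 encodes the Golgi enzyme that starts the other antenna of complex N-glycans, and Dnaaf2 a factor that helps to assemble ciliary dynein arms in the cytoplasm. 9330151L19Rik is a long noncoding RNA.

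Rpl36al and Mgat2 start head to head, and the bases between their RefSeq starts are shown because both genes differed. The stretches before Dnaaf2, Pole2 and Klhdc2 are shown because these are the remaining members that passed 2-fold. All come from the RefSeq promoter table of build GRCm38, are written 5′ to 3′ on the strand given, and carry in capitals each match to CCAAT, the CCAAT box, and to GGGCGG, a GC box, on either strand.
Rpl36al to Mgat2, chr12:69184068-69184157, plus strand: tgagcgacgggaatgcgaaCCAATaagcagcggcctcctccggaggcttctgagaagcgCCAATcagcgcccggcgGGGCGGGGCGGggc
Dnaaf2, chr12:69198430-69198679, minus strand: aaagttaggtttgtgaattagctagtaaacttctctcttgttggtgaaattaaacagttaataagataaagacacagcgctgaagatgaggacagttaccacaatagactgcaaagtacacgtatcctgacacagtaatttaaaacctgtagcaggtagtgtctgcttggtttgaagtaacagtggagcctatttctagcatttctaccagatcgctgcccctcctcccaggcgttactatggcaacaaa
Pole2, chr12:69228191-69228440, minus strand: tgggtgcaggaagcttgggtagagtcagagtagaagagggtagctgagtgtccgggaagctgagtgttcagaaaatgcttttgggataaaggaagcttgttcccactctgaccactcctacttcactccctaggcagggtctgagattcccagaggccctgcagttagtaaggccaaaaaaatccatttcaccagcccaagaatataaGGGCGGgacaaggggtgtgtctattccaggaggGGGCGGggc
Klhdc2, chr12:69296431-69296680, plus strand: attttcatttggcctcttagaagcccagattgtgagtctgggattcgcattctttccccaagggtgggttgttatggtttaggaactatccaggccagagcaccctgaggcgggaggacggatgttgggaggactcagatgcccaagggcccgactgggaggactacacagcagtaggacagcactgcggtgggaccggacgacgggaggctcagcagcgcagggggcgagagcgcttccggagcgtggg

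The 90 bases between Rpl36al and Mgat2 hold 2 CCAAT and 2 overlapping GGGCGG matches, and 70.0% of them are G or C. The stretch before Pole2 holds 2 GGGCGG matches, and those before Dnaaf2 and Klhdc2 hold no match to any motif searched. Beside CCAAT and GGGCGG these were the TATA box (TATAAA), the E-box (CACGTG), an ETS-type motif (CCGGAAGT), a YY1-type motif (AAGATGGCG), the cyclic AMP response element (TGACGTCA) and the palindromic NRF1 motif, on both strands. In full promoter entries, 250 bases before to 50 after the start, 9 members had a sequence. CCAAT occurred in 4 of these, against 37.4% of 32851 promoters, and GGGCGG in 4, against 35.7%. The ETS-type motif, held by 3.89% of promoters, occurred among these 9 in Klhdc2 alone, outside the stretch shown. No motif was common to the 5 genes that differed.

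Of the 10 members, 5 stood 2-fold or more above the Nedd4+/+ level in Nedd4-/- cells and 0 stood 2-fold or more below it. Levels are in RPKM, a read count divided by transcript length and by sequencing depth, and the rule was applied to log2((Nedd4-/- + 1)/(Nedd4+/+ + 1)) where the mean level was 1 RPKM or higher, which all 10 reached. Over all 9405 genes so tested, 13 (0.138%) passed 2-fold upward and 108 (1.15%) downward. The members' share follows from how they were chosen. Their median log2 ratio was 0.76, against -0.31 for all genes tested. Of the bases in the depth that the levels imply, 32.6% in Nedd4+/+ and 24.4% in Nedd4-/- cells fell in listed genes of known length. The part of this difference in the median was not tested. Values called relative have that median subtracted. On this scale 26 of all genes (0.276%) passed 2-fold upward, 5 of them members, and 21 (0.223%) downward.

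Rpl36al had the highest log2 ratio of all genes tested. It stood at 8.71 RPKM (7.51 to 10.04) in Nedd4+/+ cells and at 75.0 RPKM (70.8 to 79.4) in Nedd4-/- cells, from 190 and 1204 read pairs. The level in the Nedd4-/- library was 8.61 times that in the Nedd4+/+ library, and the intervals did not overlap. The log2 ratio was 2.97, or 3.28 relative to all genes. Its level exceeded that of 86.3% of all listed genes in the one and 99.2% in the other.

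Klhdc2 came next in rank. It was at 10.6 RPKM (9.92 to 11.4) in the Nedd4+/+ library, from 841 read pairs, and at 66.2 RPKM (64.1 to 68.3) in the Nedd4-/- library, from 3847 pairs. That is 6.23 times as high, with a log2 ratio of 2.53 and a relative value of 2.84. No gene outside the neighbourhood had a log2 ratio between those of Rpl36al and Klhdc2 or above either.

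The remaining 3 formed a lower group. Mgat2 stood at 8.62 RPKM (8.08 to 9.19) in Nedd4+/+ and 23.3 RPKM (22.3 to 24.4) in Nedd4-/- cells, 2.71 times as high, with a log2 ratio of 1.34. Dnaaf2 stood at 6.65 RPKM (6.23 to 7.09) and 17.2 RPKM (16.4 to 18.0), 2.59 times as high, with a log2 ratio of 1.25. Pole2 stood at 7.64 RPKM (7.01 to 8.32) and 17.7 RPKM (16.6 to 18.9), 2.32 times as high, with a log2 ratio of 1.11. Their counting intervals without pseudocount were 1.32 to 1.55, 1.26 to 1.49 and 1.06 to 1.37, so Mgat2 and Dnaaf2 overlapped each other, as did all 3, while Klhdc2 (2.53 to 2.75) and Rpl36al (2.89 to 3.34) lay apart from them and from each other.

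Nemf lay between the groups. It was at 5.91 RPKM (5.58 to 6.26) in Nedd4+/+ cells and at 8.20 RPKM (7.74 to 8.69) in Nedd4-/- cells, from 1163 and 1185 read pairs. The log2 ratio of 0.41 did not reach the 2-fold rule but was 65th from the top of the genes tested. Relative to all genes it was 0.73.

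The last 4 members had nearly equal RPKM in both libraries. Lrr1 was at 1.51 (1.22 to 1.85) and 1.58 RPKM (1.24 to 1.99), and 9330151L19Rik at 3.30 (2.97 to 3.67) and 3.34 RPKM (2.94 to 3.77). Klhdc1, whose protein is closely related to that of Klhdc2, was at 2.11 (1.85 to 2.40) and 1.94 RPKM (1.65 to 2.28). Rps29 was at 1.16 (0.699 to 1.81) and 1.01 RPKM (0.522 to 1.76), from only 19 and 12 read pairs. The intervals of the libraries overlapped for each of these 4 genes, whose log2 ratios were 0.04, 0.01, -0.08 and -0.10. Relative to all genes they were above 0, from 0.21 to 0.35, so that the sign of Klhdc1 and Rps29 depends on the scaling.

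**Figure D1:**
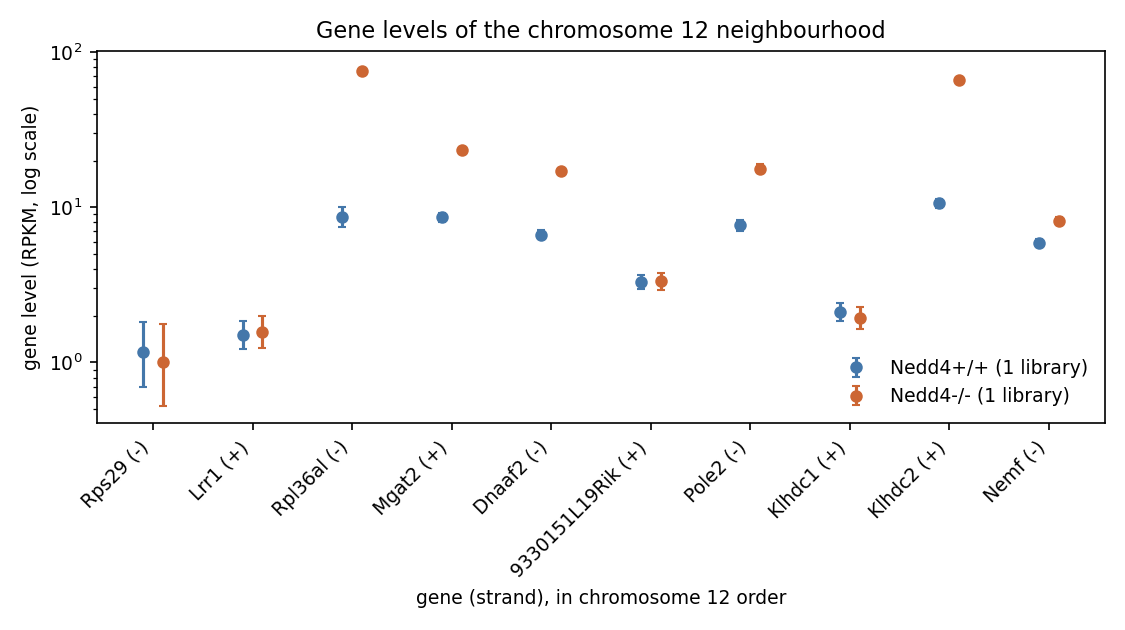
Gene level in RPKM (log axis) of the 10 neighbours in chromosome order, with the strand in brackets; points are the single Nedd4+/+ and Nedd4-/- libraries and bars are exact 95% Poisson intervals, which cover counting error only. Rpl36al (8.71 against 75.0) and Klhdc2 (10.6 against 66.2) are farthest apart, whereas Rps29, Lrr1, 9330151L19Rik and Klhdc1 overlap.

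The order of the levels also differed between the libraries. In Nedd4+/+ cells the 5 genes that differed lay within 1.60-fold of each other, from 6.65 to 10.6 RPKM, in the order Klhdc2, Rpl36al, Mgat2, Pole2 and Dnaaf2, and each overlapped the next in its counting interval. In Nedd4-/- cells they spanned 4.36-fold, from 17.2 to 75.0 RPKM, with Rpl36al first and Klhdc2 next, beyond counting error, and with Pole2 and Dnaaf2 overlapping. Below them came Nemf, 9330151L19Rik, Klhdc1, Lrr1 and Rps29 in both libraries, where the intervals of Klhdc1 and Lrr1, and of Lrr1 and Rps29, overlapped in each. The 5 genes that differed summed to 42.2 RPKM in the Nedd4+/+ library and 199 RPKM in the Nedd4-/- library, and the other 5 to 14.0 and 16.1 RPKM.

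The higher genes were not contiguous and were on both strands. Rpl36al, Mgat2 and Dnaaf2 follow each other, then 9330151L19Rik, whose intervals overlapped between the libraries, precedes Pole2, and Klhdc1, whose intervals also overlapped, lies between Pole2 and Klhdc2. Rpl36al and Mgat2, which start head to head, had equal levels in the Nedd4+/+ library, at a ratio of 1.01, but Rpl36al was 3.21 times as high as Mgat2 in the Nedd4-/- library. Pole2 and Dnaaf2, by contrast, kept a similar ratio, with Dnaaf2 at 0.870 and 0.972 of the Pole2 level. Klhdc1 stood at 0.199 of the Klhdc2 level in Nedd4+/+ and at 0.0294 in Nedd4-/- cells.

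Outside the neighbourhood the difference was not seen in the nearest genes. Among the 15 listed genes on each side, 14 reached a mean of 1 RPKM, and 0 of these passed the 2-fold rule in either direction, as deposited or relative to all genes. Their log2 ratios ran from -0.75 to 0.01 with a median of -0.28, close to that of all genes. On the side of Nemf the next gene, Arf6, a small GTPase of membrane traffic, stood at 38.4 and 22.4 RPKM with a log2 ratio of -0.75, the lowest of the 14. Beyond it Mettl21d, a lysine methyltransferase gene, was at 3.09 and 3.11 RPKM (0.01), Sos2, a Ras exchange factor gene, at 3.20 and 2.46 (-0.28), and the kinase gene Map4k5 at 2.34 and 1.75 (-0.28).

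On the side of Rps29 the 4 nearest listed genes were below 1 RPKM in both libraries. Farther out were Fancm, a DNA repair helicase gene (log2 ratio -0.32), Fkbp3, a prolyl isomerase gene (-0.36), the splicing factor gene Prpf39 (-0.14) and Fam179b (-0.40). Relative to all genes these 4 lay between -0.08 and 0.17. Over the rest of chromosome 12, 327 genes were tested, of which 0 (0.00%) passed 2-fold upward and 2 (0.612%) downward, and the highest was Ahr, the aryl hydrocarbon receptor gene, with a log2 ratio of 0.68.

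**Figure D2:**
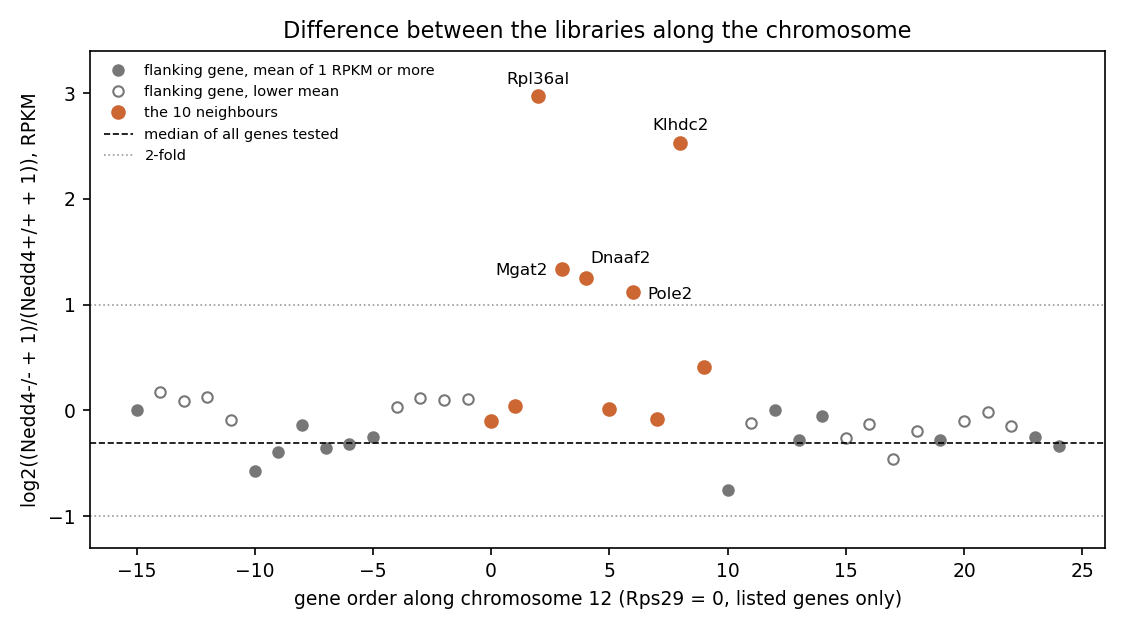
Log2((Nedd4-/- + 1)/(Nedd4+/+ + 1)) of gene RPKM for the 10 neighbours and the 15 listed genes on each side, by gene order on chromosome 12 with Rps29 at 0; open points have a mean under 1 RPKM. The 5 labelled genes lie above the dotted 2-fold line, with Rpl36al at 2.97, and the flanking genes that were tested lie between -0.75 and 0.01.

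No gene outside the neighbourhood matched Rpl36al or Klhdc2 closely. Likeness was the absolute difference in log2 ratio over the 2 libraries, among tested genes without small RNAs. For both genes the nearest 5 were Eif2s3y and Ddx3y (log2 ratios 1.69 and 1.68), Havcr1 (1.26), Uty (1.25) and Kdm5d (1.18). The smallest difference was 1.28 for Rpl36al and 0.84 for Klhdc2, both to Eif2s3y. All but Havcr1, a surface receptor gene on chromosome 11, are Y-linked. The libraries thus also differed in sex-linked RNA, with Xist at 23.7 RPKM in Nedd4+/+ and 0.0958 RPKM in Nedd4-/- cells. The Y-linked genes ran from 1.18 (Kdm5d) to 5.14 RPKM (Eif2s3y) in Nedd4+/+ and from 3.95 to 18.8 RPKM in Nedd4-/- cells. The Nedd4+/+ library therefore held Xist and Y-linked RNA together. With 1 library a group this sex-linked difference, genotype and any other difference between the cultures cannot be told apart.

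**Figure D3:**
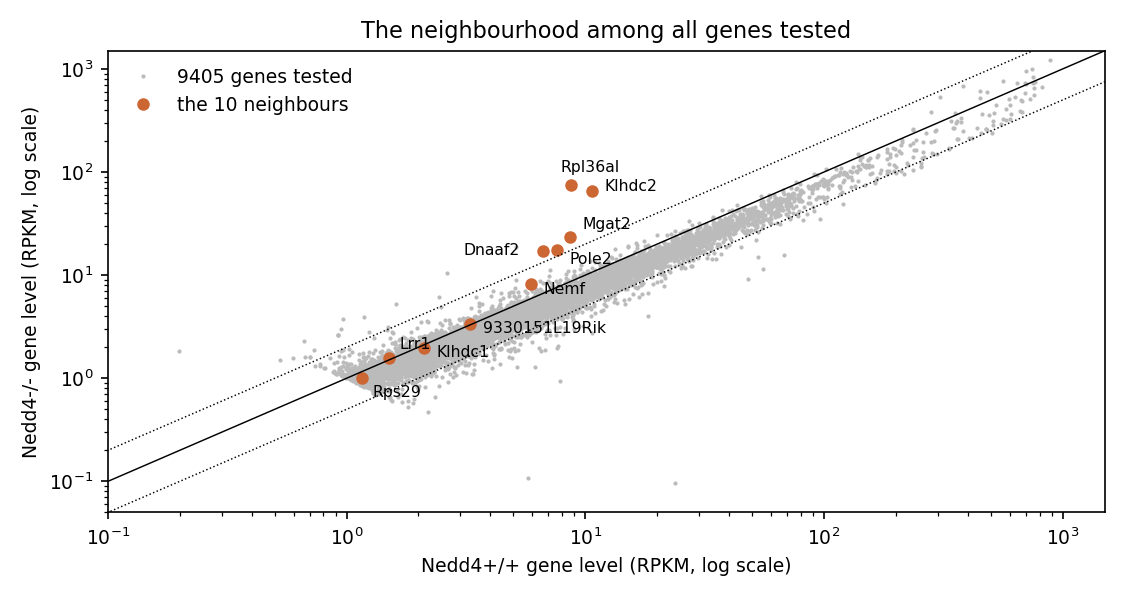
Gene level in the Nedd4-/- library against that in the Nedd4+/+ library (RPKM, log axes) for the 9405 genes tested (grey) and the 10 neighbours (orange); the solid line marks equal levels and dotted lines a 2-fold difference. Rpl36al and Klhdc2 stand apart above the cloud of genes, and Rps29, Lrr1, 9330151L19Rik and Klhdc1 lie near the line of equal levels.

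Other facts of the libraries touch these genes as follows. Nedd4, the gene targeted, was at 7.59 RPKM in Nedd4+/+ and 1.95 RPKM in Nedd4-/- cells. All 8 B cell markers, among them Cd79a and Cd22, were at 13.9 RPKM or more in both libraries, with summed levels of 1284 and 1070 RPKM. Markers of other blood cells were low, but most lists summed higher in Nedd4-/- cells. The 5 T cell markers summed to 0.503 RPKM in Nedd4+/+ and 1.33 RPKM in Nedd4-/- cells, and the 6 myeloid markers to 1.51 and 2.87 RPKM. The 3 natural killer cell markers summed to 0.209 and 0.496 RPKM, and the 2 dendritic cell markers to 0.232 and 0.545 RPKM. The 3 erythroid markers went the other way, from 2.40 to 1.43 RPKM, with Hba-a1 the highest at 1.74 and 0.897 RPKM. No single marker of the first 4 lists exceeded 1.01 RPKM, and 0 were at 0 in both libraries. Flanking genes under a mean of 1 RPKM, within 30 genes a side of the neighbourhood, differed by side. Before Rps29 most of them were higher in Nedd4-/- cells. Beyond Nemf more were lower than higher, among them all such genes within 15 genes. The part of cell composition in the results was not tested. In such bulk RNA fewer cells with a transcript and less transcript per cell cannot be told apart.

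Among genes that work with the members none passed 2-fold upward. The ribosomal protein genes besides the members numbered 77, of which 0 passed upward and 1, Rps16, passed downward (log2 ratio -1.15), or 0 relative to all genes. The highest, Rpl30, had a log2 ratio of 0.34, and their median was -0.26. Rpl36a, the X-linked gene for a nearly identical protein, was at 5.45 RPKM in Nedd4+/+ and 4.73 RPKM in Nedd4-/- cells (-0.17). Rpl36al stood at 1.60 times the Rpl36a level in the former and 15.9 times in the latter. In the Nedd4+/+ library 10 of the 77 genes were lower than Rpl36al, and in the Nedd4-/- library 53 were. Rps29 was lower than all 77 in both libraries.

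Of the other subunits of DNA polymerase epsilon, 3 of 3 were tested and 0 passed the 2-fold rule. Pole3 was at 7.23 and 4.48 RPKM (-0.59) and Pole4 at 14.5 and 13.6 RPKM (-0.09), both histone-fold subunits that bind DNA. Replisome genes that act with Lrr1 gave 12 tested, 0 past 2-fold and a median of -0.47, with the helicase subunit gene Mcm3 at -0.60 and Gins4 at -0.59. Enzymes of N-glycan branching gave 11 tested of 12, 0 past 2-fold and a median of -0.39. Man2a1, the mannosidase that trims the substrate of Mgat2, was at 12.4 and 6.76 RPKM (-0.79), and Mgat4b, a later branching enzyme gene, at 0.907 and 1.10 RPKM (0.14).

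The elongin, cullin and receptor genes of the ligases to which Klhdc2, Klhdc1 and Lrr1 belong gave 15 tested, 0 past 2-fold and a median of -0.31, the same as all genes. Klhdc3, another C-end receptor gene, was at 5.98 and 4.37 RPKM (-0.38), Fem1b, a receptor gene, at 13.1 and 8.85 RPKM (-0.52) and Tceb1, the elongin C gene, at 15.5 and 14.9 RPKM (-0.06). Ribosome quality control, in which Nemf acts, gave 9 tested, 0 past 2-fold and a median of -0.49, with the ribosome-splitting factor gene Ascc3 at -0.65 and the rescue factor gene Hbs1l also at -0.65. Dynein arm assembly, to which Dnaaf2 belongs, gave 4 tested of 12 listed, 0 past 2-fold and a median of -0.30, with the chaperone genes Ruvbl1 at -0.24 and Ruvbl2 at -0.59.

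Several members overlap in the GRCm38 annotation, and the strand setting of the counting is not given in the sources used here, so reads of overlapping genes cannot be told apart. Klhdc2 and Nemf converge and share 166 exonic bases, 3.51% of the Nemf transcript. The Klhdc2 difference of 55.5 RPKM, if even along its transcript, comes to 1.95 RPKM when those bases are averaged over Nemf, which itself differed by 2.29 RPKM. Dnaaf2 and 9330151L19Rik share 1107 exonic bases on opposite strands, 43.5% of the noncoding transcript. There the Dnaaf2 difference of 10.6 RPKM would by the same sum come to 4.60 RPKM, whereas 9330151L19Rik differed by 0.0310 RPKM. The part of these overlaps in either value was not tested.

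The annotation also holds a pair of protein-coding genes on the minus strand whose exons overlap those of members on the same strand. Gm49383 shares 332 bases, 63.1% of the transcript, with Rpl36al and 757 bases (22.3%) with Dnaaf2. Gm49384 shares 700 bases (20.6%) with Dnaaf2 and 245 bases (14.4%) with Pole2. These 3 members were among the 5 that passed 2-fold, and reads in the shared bases cannot be assigned to 1 gene from these values. Neither gene was analysed here.

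Sequence copies also bear on the ribosomal genes. Of all stretches of 1 read length in the Rpl36al transcript, 28.2% occur unchanged in a transcript from elsewhere in the genome, the pseudogene Rpl36a-ps3. For Rps29 the share is 24.5%, in Gm14303. The other 8 members share no such stretch with an annotated transcript from elsewhere. Copies with mismatches or without an annotated transcript were not searched, and how reads with several matches were treated is not given. Levels of Rpl36al and Rps29 are therefore uncertain, by an extent that these shares do not give.

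The kilobase upstream of each gene was the second measure. In the files it is a ratio to the gene's own level, and it is given here as a level in RPKM by multiplying the ratio back. With 0.1 RPKM added and a minimum mean of 0.2 RPKM, which 9 member windows reached, those of Lrr1 and 9330151L19Rik, 2 in all, passed 2-fold upward in Nedd4-/- cells and 0 passed downward. Over all 11837 windows tested, 2343 (19.8%) passed upward and 94 (0.794%) downward, so the members' share of higher windows is near that of all windows. Relative to the median window, 2 members passed upward, against 6.50% of all windows, and 1, that of Klhdc1, downward, against 5.68%. The median of the member windows was 0.35, against 0.41 for all windows. Windows of all genes were thus mostly higher in the library with the smaller part of its bases in genes (24.4% against 32.6%), and the part of that difference in the window values was not tested.

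Several windows fall inside a neighbouring member. That of 9330151L19Rik, 719 bases of which are Dnaaf2 exon, stood at 7.10 RPKM (6.31 to 7.95) in Nedd4+/+ and 22.8 RPKM (21.1 to 24.6) in Nedd4-/- cells (log2 ratio 1.67). The deposited levels of 9330151L19Rik itself overlapped in their intervals, with a log2 ratio of 0.01, or 0.32 relative to all genes. The window of Dnaaf2 lies wholly in 9330151L19Rik exon and was at 2.92 (2.44 to 3.50) and 2.99 RPKM (2.40 to 3.66), a log2 ratio of 0.03. The window of Rpl36al, with 927 bases in Mgat2, was at 8.04 (7.20 to 8.94) and 15.4 RPKM (14.1 to 16.9), a log2 ratio of 0.93. The window of Mgat2 has 927 bases in exons of Rpl36al transcripts, of which 110 belong to the transcript listed. It was at 2.25 (1.83 to 2.77) and 2.89 RPKM (2.31 to 3.55), with overlapping intervals, although Rpl36al itself was at 8.71 and 75.0 RPKM. The window thus did not show the difference of the gene level, and the reason was not tested. These placements rest on GENCODE transcripts of GRCm38, whose starts differ from the RefSeq starts used for the sequences above, and not on the build of the files.

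The remaining windows hold no exon of another member. The window of Pole2 was at 0.599 (0.389 to 0.888) and 0.594 RPKM (0.350 to 0.932), that of Klhdc2 at 1.00 (0.728 to 1.37) and 0.713 RPKM (0.452 to 1.09), and that of Klhdc1 at 0.831 (0.586 to 1.17) and 0.503 RPKM (0.275 to 0.811). All 3 intervals overlapped between the libraries. Upstream of Lrr1 the level was 0.0601 RPKM (0.00583 to 0.174) in Nedd4+/+ and 0.401 RPKM (0.203 to 0.687) in Nedd4-/- cells, from 2.5 and 12.2 read pairs, with a counting interval of the log2 ratio from 0.86 to 6.23. Upstream of Nemf at most 3.2 read pairs were found in either library, so no ratio is given.

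The window of Rps29 was far above the rest at 198 and 267 RPKM, whereas the gene itself was near 1 RPKM. It holds the whole of Rn7s1, a 7SL RNA gene for the RNA of the signal recognition particle, on the other strand. The number of read pairs was nearly the same in both libraries, 8214 and 8138, and after the authors' scaling to library size the log2 ratio was 0.43. Whether a limit on depth entered the value was not tested.

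**Figure D4:**
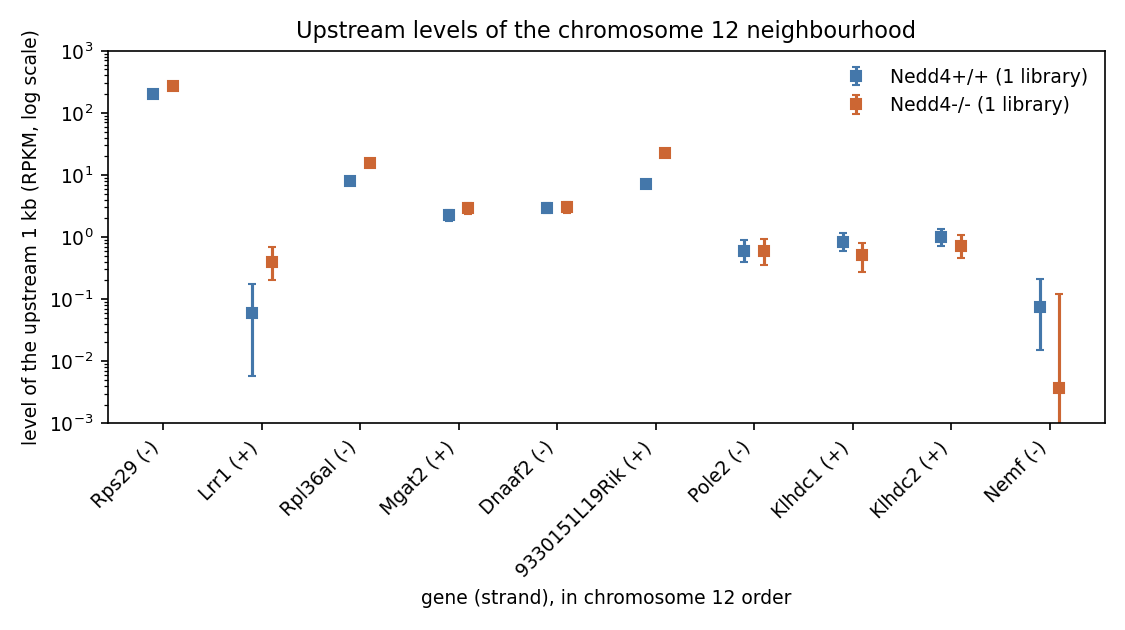
Level of the kilobase upstream of each of the 10 neighbours in RPKM (log axis), in chromosome order; squares are the single libraries and bars are exact 95% Poisson intervals for counting error only. The windows of Rpl36al (8.04 against 15.4) and 9330151L19Rik (7.10 against 22.8), and that of Lrr1 at a low level (0.0601 against 0.401), do not overlap, that of Rps29 is highest and does not overlap either, and those of Mgat2, Dnaaf2, Pole2, Klhdc1 and Klhdc2 overlap.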

How the data were processed

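The submitters' processing notes name TopHat, Cufflinks and mm9, with no version or role. The strand, counting and multiple-match settings were not given in the sources used here. Gene values were deposited as RPKM, per the file headers. The other deposited column was found to hold a ratio, in which the upstream 1000 nt have their level divided by the gene's RPKM plus 0.0001: multiplied back, 99.99% of 19076 low windows (Nedd4+/+) and 100% of 18863 (Nedd4-/-) were whole numbers of read bases within 0.05 bases. The design had assumed that the column might be a level or a ratio. The same steps gave the depth in bases by which levels had been divided (8.40 and 6.17 gigabases). Whether that depth counts all reads or mapped reads is not given in the sources used here. With lengths of GENCODE transcripts matched by accession (22622 of 23288 genes), the steps also gave approximate numbers of read pairs. The read length was set at 101 nt and reads were taken as pairs. The base and pair counts and the depth rest on that read length. Numbers of pairs were rounded for exact Poisson and Clopper-Pearson intervals.

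Groups came from the titles. Log2 ratios added 1 RPKM (minimum mean 1 RPKM) or 0.1 RPKM upstream (minimum 0.2 RPKM); 1 library a group allows no test. Alternatives were other pseudocounts, minima, scalings and flank sizes. The reference was GRCm38, used for names, order, overlaps and promoter sequences. Members, lists, motifs and the naming rule were chosen with earlier results of these data known. The rule named all members, the 5 nearest tested genes a side, up to 2 partners a list, Rpl36a, Klhdc3, Nedd4, sex-linked genes and the 5 most like genes, of which some are not reported here; Ahr, Rn7s1, Rpl36a-ps3, Gm14303, Gm49383 and Gm49384 were named after their values were seen. Scripts were tested on simulated data and used Python 3.11.15, pandas 2.3.3 and SciPy 1.17.1.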

Additional observations from a re-analysis of the deposited data

How the results depend on the processing

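The count of 5 members at least 2-fold higher was the same under all 6 alternatives for gene levels, and that of 0 flanking genes also with 30 genes a side. Log2 ratios of the 5 genes ran over these settings from 2.97 to 3.39 for Rpl36al, 2.53 to 2.95 for Klhdc2, 1.34 to 1.75 for Mgat2, 1.25 to 1.65 for Dnaaf2 and 1.11 to 1.52 for Pole2. The background moved more. Of all genes, 13 were at least 2-fold higher and 108 lower, against 25 and 229 with 0.1 RPKM added, 26 and 262 with none, 26 and 21 centred on the median, and 33 and 18 scaled to the bases in genes, while 7 were higher with a minimum of 5 RPKM. Centred or scaled to bases, 0 partner genes passed, against 1. Of member windows, 2 were higher and 0 lower; 1 was higher with 1 RPKM added or with a minimum of 1 RPKM, and 1 was lower when centred or with the ratio as deposited. Of all windows, 2343 were higher and 94 lower, against 3647 and 172 with 0.01 RPKM added, 2 and 12 with 1 RPKM added, 10 and 38 with a minimum of 1 RPKM, 4468 higher with no minimum, 769 and 672 centred, and 1359 and 530 with the ratio as deposited. The cause of these shifts was not tested. The alternative for symbols with several rows was not run, since 0 symbols had any. No paired analysis was possible because each group has 1 library.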
